A study of Mus musculus with 19 samples.

Results

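The genes encoding the proteins of the cytosolic ribosome were examined in RNA sequencing libraries of the left prelimbic cortex of mice. Members were the genes whose symbol is Rpl or Rps followed by a number and at most 1 of a few letters, with a mean CPM of at least 1 (CPM, a gene's counts scaled to library size) over the 19 libraries. Of 20938 genes in the deposited table, 77 symbols matched and 74 passed, 30 of the small and 44 of the large subunit. The tissue came from 4 groups: 4 SCZ+c-MSST libraries, 4 SCZ libraries, 5 Control+c-MSST libraries and 6 Control libraries. SCZ mice had daily intraperitoneal MK-801, a blocker of NMDA-type glutamate receptors, at 0.2 mg/kg, and Control mice had saline on the same schedule. In both c-MSST groups, ferumoxytol, a suspension of iron oxide nanoparticles, was placed in the left prelimbic cortex by stereotactic surgery, and the awake mice were then kept in a pulsed magnetic field. Whether mice outside the c-MSST groups were operated on is not in the labels, and neither are strain, sex and age. They do not tie each library to a separate animal in so many words, so p-values measure the spread between these libraries. All 4 groups carried neuronal markers at a high level, with a summed level of at least 7010 CPM over 6 genes. Markers of striatal neurons, which lie outside the labelled region, summed to between 116 and 1490 CPM.

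Each ribosome holds 1 copy of nearly every one of these proteins, bound to ribosomal RNA. Cells make the proteins in matched amounts, and most of the genes are active in every cell type. Many of their mRNAs begin with a cytosine followed by a run of pyrimidines, the terminal oligopyrimidine (TOP) tract, through which mTOR signalling controls their translation. In neurons, ribosomal protein mRNAs are also found in dendrites and axons.

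The region around the transcript start is shown for 6 members, because the TOP tract is the sequence feature the family is known for. RefSeq start sites on build GRCm38.p6 were found for 55 of the 74 members. Each line gives 15 bases before the annotated start and 15 from it onward, 5′ to 3′ on the gene's strand, with the unbroken pyrimidine run from the start in capitals.
Rps6: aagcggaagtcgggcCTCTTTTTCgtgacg
Rps10: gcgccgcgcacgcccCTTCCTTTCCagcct
Rps21: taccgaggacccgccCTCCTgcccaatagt
Rps27: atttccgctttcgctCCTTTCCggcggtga
Rpl14: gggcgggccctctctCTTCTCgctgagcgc
Rpl15: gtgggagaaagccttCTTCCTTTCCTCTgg
The windows lie at chr4:86857353-86857382 (minus strand) for Rps6, chr17:27635230-27635259 (minus) for Rps10, chr2:180257364-180257393 (plus) for Rps21, chr3:90213634-90213663 (minus) for Rps27, chr9:120571502-120571531 (plus) for Rpl14 and chr14:18270972-18271001 (minus) for Rpl15. A cytosine at the annotated start followed by at least 4 pyrimidines was present in 13 of 55 members (23.6%), against 3.01% of 27025 genes in the RefSeq table. A looser search, for a cytosine and at least 6 following pyrimidines that begin within 15 bases of the start, matched 56.4% of members and 19.4% of all genes. In the 300 bases from 250 before to 50 after the start, CGGAAG, a core of ETS factor motifs, was present on either strand in 69.1% of members and 18.8% of all genes. The motif AAGATGGC, the core of the YY1 motif, was present in 9.09% of members and 3.19% of all genes, and TATAAA in 10.9% of members and 15.7% of all genes. Rps21 has another annotated start, with no such run, which is not shown. These letter matches describe the annotated windows and were not tested as sites.

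**Figure D1:**
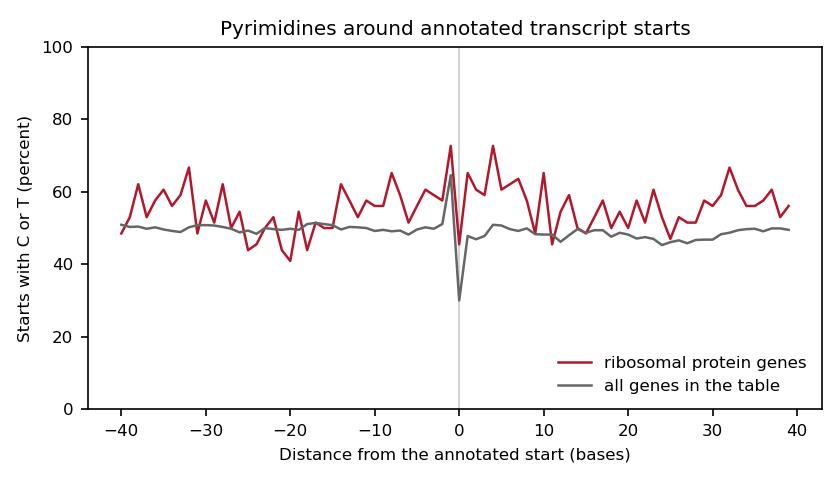
Percent of annotated starts with C or T (y axis) at each distance in bases from the start (x axis), for ribosomal protein genes (red) and for all genes of the RefSeq promoter table (grey). The red line lies above the grey line over most of the first 10 bases after the start, and also at most other distances shown on both sides of it.

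Libraries held 50140626 to 82416746 counts, and the members together took 0.606% to 0.769% of them. The members took 0.705%, 0.718%, 0.725% and 0.656% of the counts in the SCZ+c-MSST libraries and 0.740%, 0.764%, 0.768% and 0.769% in the SCZ libraries. They took 0.668%, 0.719%, 0.636%, 0.632% and 0.650% in the Control+c-MSST libraries, and in the Control libraries the lowest share was 0.606% and the highest 0.760%. The SCZ libraries lay close together and above every SCZ+c-MSST and Control+c-MSST library, while 2 Control libraries reached their range. The mean share was 0.701% ± 0.031 in SCZ+c-MSST (SD, n = 4), 0.760% ± 0.0139 in SCZ (n = 4), 0.661% ± 0.0357 in Control+c-MSST (n = 5) and 0.693% ± 0.0592 in Control (n = 6). In bulk tissue, fewer cells of a type and less RNA per cell cannot be told apart.

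**Figure D2:**
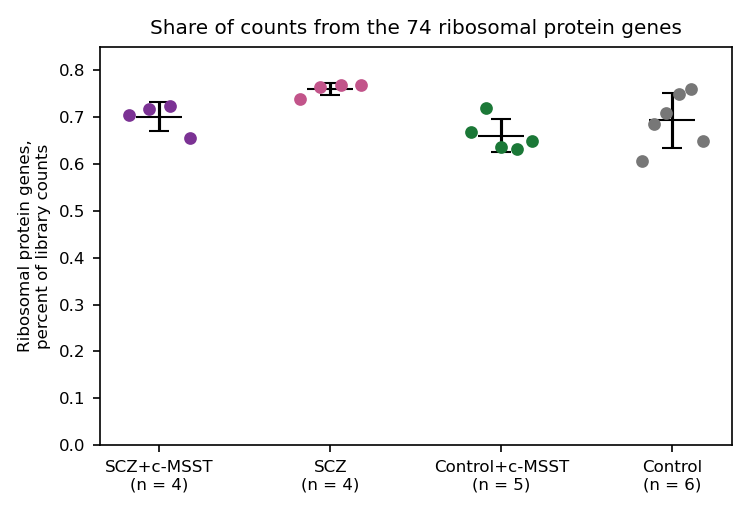
Percent of each library's counts that fell on the 74 members (y axis, from 0) by group (x axis), with 1 point per library and the mean with its SD in black. The SCZ points sit between 0.740% and 0.769%, and the Control points spread from 0.606% to 0.760%.

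Most members lay close to one another in level per length. CPM was divided by the length in kilobases of the shortest GENCODE M21 transcript that holds the principal coding sequence. On that scale the median member stood at 120 CPM per kb, with quartiles at 91.5 and 159, and 62 of 74 lay within 2-fold of the median. The median was 132 CPM per kb for small subunit members and 109 for large subunit members, against 6.99 for 16204 tested genes with a length. Rps15 (415 ± 30.5 CPM per kb, SD, n = 19), Rpl41 (305 ± 24.8), which encodes the shortest protein of the family, and Rpl26 (245 ± 24.0) were highest. Rpl32l (7.18 ± 1.67) and Rps27l (10.0 ± 1.11) were lowest. Rps20 (10.2 ± 1.37) was divided by an annotated transcript of 3706 bases. In the deposited FPKM values, members ranged over 57.4-fold, with Rps24 (225), Rps15 (192) and Rpl21 (179) highest. Of the members, 7 had a length divisor in those values over 3 times that of the median gene relative to transcript length, as did 9.25% of all genes, so levels are compared here per length.

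Just inside the rule's threshold were Rpl32l at a mean of 2.86 CPM, Rps27l at 4.99 CPM and Rpl34 at 5.01 CPM. Just outside were Rpl3l, known from muscle, at 0.323 CPM, Rpl39l, known from testis, at 0.0058 CPM, and Rpl10l, known from testis, at 0 CPM in all 19 libraries. With 3 counts as the limit that a count of 0 allows, Rpl10l could have reached 0.0364 to 0.0598 CPM, for counting error only.

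Of all members, Rps27 varied most between libraries. It encodes a zinc finger protein of the small subunit. Rps27 lay at 0.134 to 0.388 CPM in 4 libraries, which were SCZ+c-MSST replicate 3, SCZ replicates 3 and 5, and Control+c-MSST replicate 4. It lay at 33.0 to 53.4 CPM in the other 15 libraries. Its intronless copy Rps27rt showed the reverse, with 43.8 to 59.8 CPM in those 4 libraries and 1.70 to 3.85 CPM in the other 15. The sum of both genes was 44.0 to 60.0 CPM in the 4 libraries and 34.9 to 57.3 CPM in the 15, so the ranges of the sum overlapped. No other gene of the 14056 with a mean of at least 1 CPM lay 10-fold below, or above, every other library in all 4 of these libraries.

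The coding sequences of Rps27 and Rps27rt, 255 bases each, were identical in GENCODE M21, and the longest run shared by their transcripts of 345 and 374 bases was 341 bases. Reads from one could therefore not be told from reads of the other over nearly the whole transcript. Rps27 lies at chr3:90212522-90213651 and Rps27rt at chr9:114982366-114982739, both on the minus strand of GRCm38. The paralogue Rps27l, at chr9:66946086-66949516 on the plus strand, has a coding sequence of the same length. It differs from Rps27 at 61 bases (76.1% identity), which are in capitals in the second line, so its counts can be told apart.
Rps27: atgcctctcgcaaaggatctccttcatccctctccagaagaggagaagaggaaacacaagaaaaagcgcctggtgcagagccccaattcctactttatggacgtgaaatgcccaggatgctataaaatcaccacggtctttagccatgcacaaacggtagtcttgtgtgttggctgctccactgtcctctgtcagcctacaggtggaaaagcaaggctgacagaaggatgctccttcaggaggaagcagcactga
Rps27l: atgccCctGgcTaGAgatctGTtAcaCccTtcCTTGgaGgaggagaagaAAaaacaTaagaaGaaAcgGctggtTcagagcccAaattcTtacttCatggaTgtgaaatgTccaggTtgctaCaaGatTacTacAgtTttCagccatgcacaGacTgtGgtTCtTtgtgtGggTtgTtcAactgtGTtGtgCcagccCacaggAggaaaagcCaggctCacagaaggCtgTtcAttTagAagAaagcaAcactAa
Rps27l, a target of p53, had 4.77, 5.45, 4.95 and 4.41 CPM in SCZ+c-MSST and 4.79, 5.01, 4.81 and 5.98 CPM in SCZ. It had 5.30, 4.50, 5.13, 4.92 and 5.37 CPM in Control+c-MSST and a lowest value of 3.49, a median of 4.99 and a highest of 5.72 CPM in Control. The ranges of the 4 groups overlapped.

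**Figure D3:**
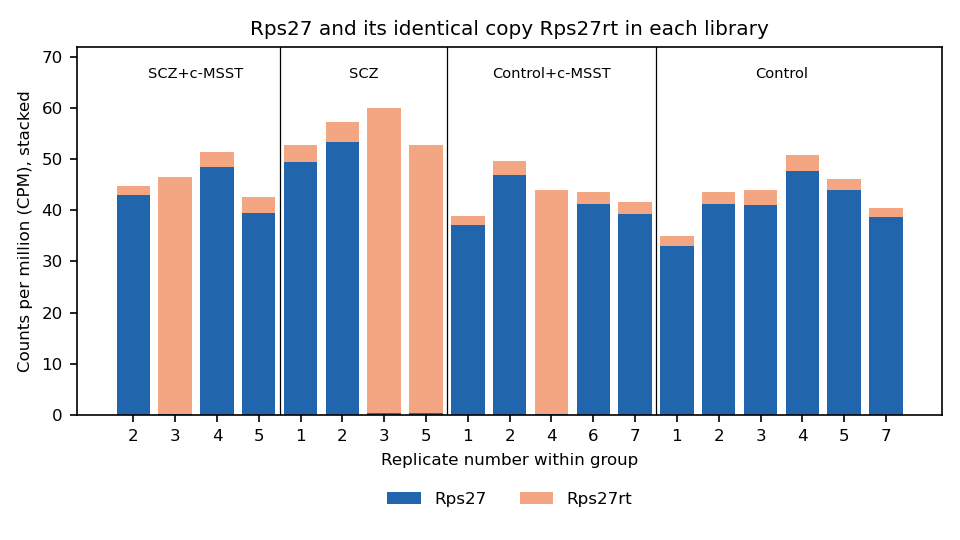
CPM (y axis) of Rps27 (blue) and of its identical copy Rps27rt (orange), stacked, in each library (x axis, replicate number within group). In 4 libraries nearly the whole bar is Rps27rt, while the summed height stays between 34.9 and 60.0 CPM in all 19.

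Rps27 fitted alone had a log2 fold change of -0.67 (SE 1.26, edgeR adjusted p = 0.871) in SCZ against Control, with 2 of the 4 SCZ libraries and 0 of the 6 Control libraries among those below 1 CPM. With both genes summed before the fit, a choice made after seeing the data, the change was 0.34 (SE 0.08, adjusted p = 0.146). The summed change in SCZ+c-MSST relative to SCZ was -0.23 (SE 0.09, adjusted p = 0.551). Rpl34 is a second member with a near copy. It averaged 5.01 CPM, against 29.9 to 51.9 CPM for Rpl34-ps1, whose 354 bases differ from the Rpl34 coding sequence at 2 positions, T132C and C318G, counted from the first base of the start codon with the Rpl34 base first. Levels of both copies are uncertain for the same reason.

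Most members tended to move together from library to library. Over 19 libraries, the median pairwise correlation of log2 CPM among all 74 members, Rps27 included, was 0.54. It was 0.46 for deviations from the group means. The same values for other genes are not given here, so this is not shown to be particular to the family. These points share library and depth, and the values are descriptions. The first principal component took 85.9% of the variance with Rps27 included, with a loading of 0.997 on it, and 51% without it. Within groups, the median member had a coefficient of variation of 7.85%. Without Rps27, the largest ratio of highest to lowest library was 2.45, for Rpl34. The lowest mean correlations with other members belonged to Rpl32l (-0.43), Rps27 (-0.13) and Rpl29 (0.07).

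Counting members above their own mean places each library. In the SCZ libraries, 65, 69, 65 and 66 of 74 members were above it. In the Control libraries the count was 16, 22, 30, 59, 66 and 12, so Control replicates 4 and 5 had counts near those of SCZ, and replicates 1 and 7 had the lowest. The count was 36, 60, 56 and 10 in SCZ+c-MSST and 24, 55, 8, 12 and 13 in Control+c-MSST.

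**Figure D4:**
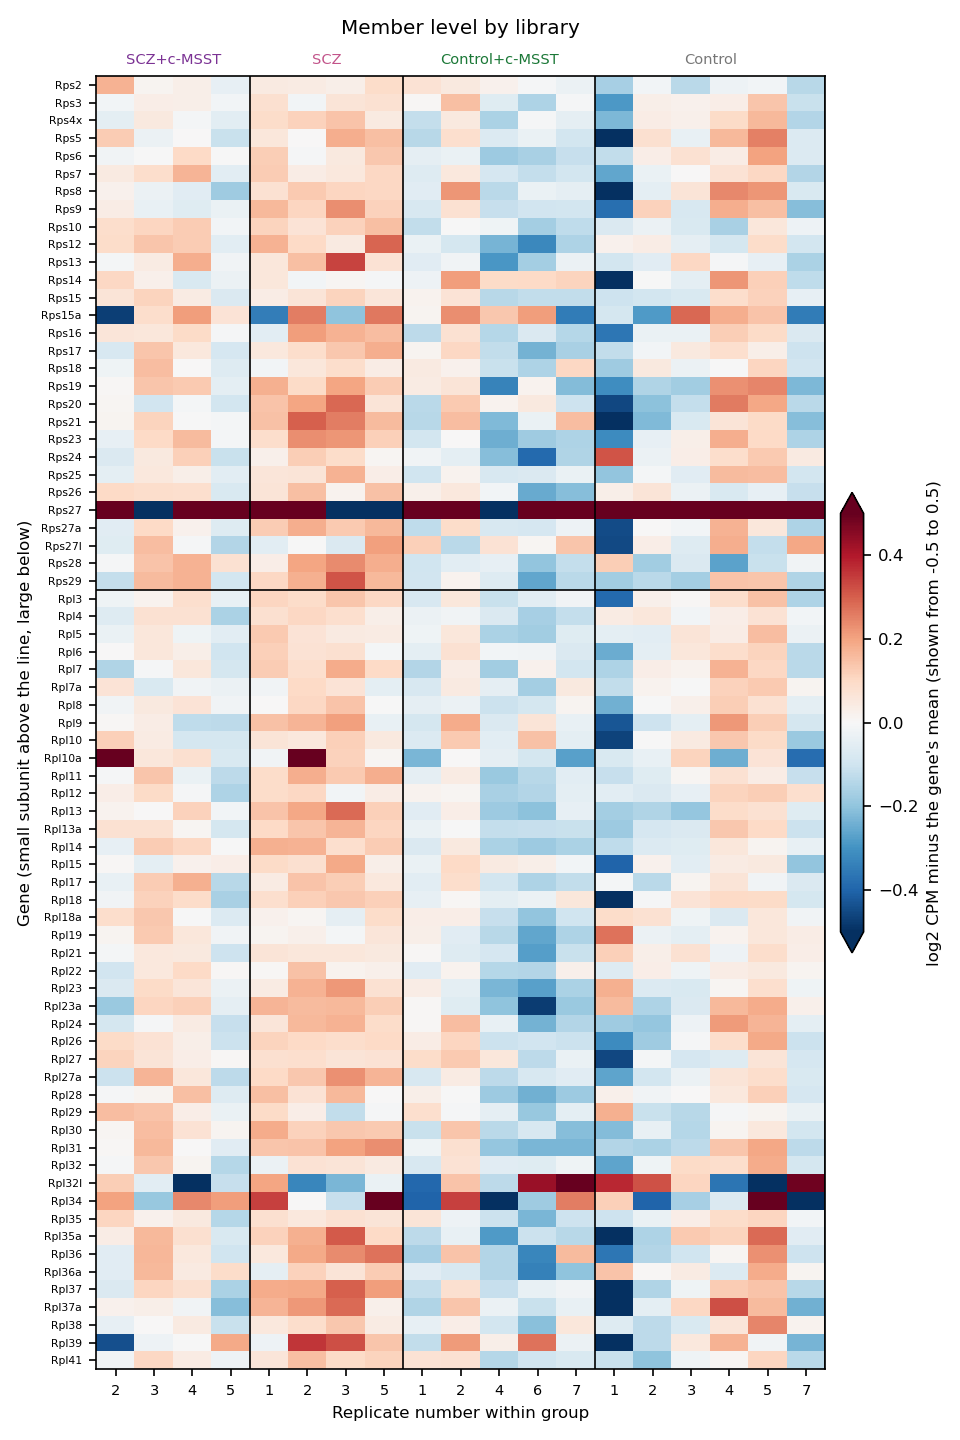
Each member's log2 CPM minus its own mean (colour, from -0.5 to 0.5) in each library (x axis) for 73 of the 74 members, Rps27 included (y axis). SCZ columns are mostly red, Control replicates 1 and 7 and most Control+c-MSST columns mostly blue, and the Rps27 row exceeds the colour range.

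The comparison of SCZ with Control asked how MK-801 treatment alone related to these genes. Most members were slightly higher in SCZ, by a median of 0.12 on the log2 scale (quartiles 0.06 and 0.19), and 69 of 74 had a positive log2 fold change, against 50.1% of all 16417 genes tested. No member passed an adjusted p of 0.05 in edgeR's quasi-likelihood test, as for all genes, of which 0% were called. DESeq2 called 2 members, Rpl13 and Rps28, among 242 genes called in all. At an unadjusted p under 0.05, 26 members were higher and 0 lower, against 6.09% of all genes higher and 7.43% lower. The 26 became 18 without SCZ replicate 3 and 19 without SCZ replicate 2 or Control replicate 7. They became 33 without Control replicate 5 and 37 without Control replicate 4. In 9 members every SCZ library exceeded every Control library on TMM-scaled log2 CPM, against 1.6% of all genes, and in 0 members below, against 1.25%. On CPM without that scaling, the scale of the values printed here, it was 10 members and 1.86% of all genes. The medians were the same for both subunits (0.12 each). Because members tended to move together between libraries, the counts of members here and in the contrasts below are not counts of independent genes.

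Rpl13, a large subunit protein, had 113, 118, 127 and 115 CPM in SCZ, against a lowest value of 87.2, a median of 94.3 and a highest of 110 CPM in Control. The groups did not overlap, and the log2 fold change was 0.25 (SE 0.06, edgeR adjusted p = 0.148), the smallest adjusted p of any member. Rps28 of the small subunit had 51.0, 57.6, 59.8 and 58.8 CPM in SCZ, against a lowest of 41.9, a median of 47.4 and a highest of 52.2 CPM in Control. Its lowest SCZ library fell inside the Control range, with a change of 0.25 (SE 0.06, adjusted p = 0.151). Rps21, whose start window is shown above, had 66.6, 74.8, 73.4 and 70.0 CPM in SCZ, against a lowest of 39.8, a median of 55.3 and a highest of 64.9 CPM in Control. Its groups did not overlap, and its change was 0.35 (SE 0.10, adjusted p = 0.168).

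Among members with a known role beyond or within the ribosome, none passed the test in SCZ against Control. Rps6, the target of kinases downstream of mTOR, had 143, 132, 138 and 150 CPM in SCZ, against a lowest of 116, a median of 136 and a highest of 152 CPM in Control, with overlapping groups and a change of 0.05 (SE 0.05, adjusted p = 0.758). Rpl5 and Rpl11 form a particle with the smallest ribosomal RNA of the large subunit, and both bind Mdm2 when ribosome assembly is disturbed. Rpl5 averaged 119 ± 2.13 CPM in SCZ and 113 ± 8.11 CPM in Control (SD, n = 4 and 6; change 0.05, adjusted p = 0.712), and Rpl11 93.6 ± 4.09 CPM in SCZ and 81.7 ± 6.04 CPM in Control (change 0.17, adjusted p = 0.204). Rps19, the gene most often mutated in Diamond-Blackfan anaemia in people, averaged 56.2 ± 1.86 CPM in SCZ and 48.3 ± 8.87 CPM in Control (change 0.20, adjusted p = 0.417). Rps27a, made as a fusion with ubiquitin, averaged 62.5 ± 1.8 CPM in SCZ and 53.5 ± 8.44 CPM in Control (change 0.20, adjusted p = 0.291). Rpl3, which reaches to the peptidyl transferase centre, had a change of 0.15, Rpl4 and Rpl39, which line the exit tunnel, 0.05 and 0.32, and Rpl10, added late in assembly, 0.12. Rps3 had a change of 0.08, the X-linked Rps4x 0.10, Rpl22 0.04 and Rpl41 0.16, all with an adjusted p of at least 0.245. The 5 members with a negative change were Rps27, Rpl32l (-0.20), Rps24 (-0.04), Rpl19 (-0.03) and Rpl7a (-0.00). The signs of Rps24 and Rpl19 turned without Control replicate 1, to 0.01 each, and those of Rpl21 (0.00), Rpl36a (0.01), Rpl29 (0.01) and Rps27l (0.05) also turned under some alternatives, so no direction is given for these genes.

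Marker lists went both ways in this comparison. Markers of striatal neurons summed to 1060 to 1470 CPM in SCZ and 116 to 1180 CPM in Control, with overlap, and none was at 0. Of these, 6 of 6 had a positive change, 0 at an unadjusted edgeR p under 0.05. Endothelial markers summed to 221 to 244 CPM in SCZ and 184 to 200 CPM in Control, without overlap. Choroid plexus markers had a median sum of 24.6 CPM in SCZ and 25.5 CPM in Control, the highest Control library reached 1780 CPM, and 0 of 5 had a positive change. Of the other lists, 2 of 6 neuronal, 1 of 5 astrocyte and 2 of 5 red blood cell markers had a positive change. So did 5 of 6 oligodendrocyte, 3 of 5 microglial and 3 of 4 septal and medial forebrain markers. Other genes with short transcripts, at most 1500 bases, also had a positive change more often (1797 of 3006, median 0.05). The part of these in the members' levels was not tested. Among the 73 members other than Rps27, log2 fold change and log2 length had a correlation of -0.16 across genes, which are not independent.

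Setting Control+c-MSST beside Control addressed the intervention in saline mice. The median change of members was -0.04, with 21 of 74 positive against 47.1% of all genes. With the deposited FPKM values the split turned to 56 of 74 positive and a median of 0.04, so no direction is given. The median of all genes was then 0.037 with 1 added before the log and 0.064 with 0.1 added. No member was called by edgeR, against 0.329% of all genes (54 genes), while DESeq2 called 3 members lower (Rps24, Rpl36a and Rpl21) and 571 genes. Without 1 library, edgeR's count over all genes ran from 0 (without Control+c-MSST replicate 6) to 314 (without Control replicate 7), and it was 0 with the replicate number as a block or with only the groups compared. At an unadjusted p under 0.05, 10 members were lower and 1 higher, against 8.7% of all genes lower and 7.86% higher, and the 10 became 6 without Control+c-MSST replicate 6. On TMM-scaled values 1 member, Rpl4, lay below Control in every library, against 0.755% of all genes, and 0 lay above it, against 0.847%. In unscaled CPM, 3 lay below Control, Rps24, Rpl36a and Rpl21, against 1.3% of all genes. Rps24, mutated in some people with Diamond-Blackfan anaemia, had 172, 171, 151, 134 and 157 CPM in Control+c-MSST, against a lowest of 176, a median of 189 and a highest of 213 CPM in Control. All 5 libraries lay below the Control range in CPM, though not after TMM scaling, and the change was -0.26 (SE 0.07, edgeR adjusted p = 0.0832). Rpl36a changed by -0.22 (SE 0.06, adjusted p = 0.0974) and Rpl21 by -0.16 (SE 0.05, adjusted p = 0.102), neither past the threshold. Oligodendrocyte markers summed to 890 to 2800 CPM in Control+c-MSST and 2320 to 4050 CPM in Control, and 0 of 6 had a positive change. Nor did any astrocyte (0 of 5), choroid plexus (0 of 5), striatal (0 of 6) or septal and medial forebrain marker (0 of 4). Endothelial and microglial markers went the other way, with 4 of 5 positive in each list. The part of these in the members' levels was not tested.

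Setting SCZ+c-MSST beside SCZ addressed the intervention in MK-801 mice. Members were slightly lower in SCZ+c-MSST, by a median of -0.08, and 4 of 74 had a positive change, against 47.4% of all genes. No member was called by edgeR or DESeq2. Over all genes, edgeR called 0% and DESeq2 called 62 genes. At an unadjusted p under 0.05, 5 members were lower and 0 higher, against 3.7% of all genes lower and 3.86% higher. In 13 members every SCZ+c-MSST library lay below every SCZ library on TMM-scaled values, against 3.78% of all genes, and in 0 members above, against 4.5%. In unscaled CPM it was 25 members, against 6.09%. Rpl11 of the large subunit had 82.7, 89.9, 81.1 and 74.6 CPM in SCZ+c-MSST and 88.4, 95.2, 92.7 and 98.1 CPM in SCZ. The groups overlapped by 1 library, and the change was -0.15 (SE 0.06, edgeR adjusted p = 0.587). Rpl7, of the large subunit, had 102, 111, 117 and 104 CPM in SCZ+c-MSST and 123, 121, 131 and 126 CPM in SCZ, without overlap, and changed by -0.17 (SE 0.07, adjusted p = 0.603). The unadjusted count rested on single libraries: it was 0 without SCZ+c-MSST replicate 5, 1 without SCZ+c-MSST replicate 2, 1 without SCZ replicate 3, 2 without SCZ replicate 2 and 13 without Control replicate 1. Red blood cell markers summed to 189 to 1300 CPM in SCZ+c-MSST and 133 to 153 CPM in SCZ, with Hba-a1 at 0 in some libraries, and striatal markers to 666 to 1490 CPM in SCZ+c-MSST and 1060 to 1470 CPM in SCZ. Oligodendrocyte markers summed to 2560 to 3380 CPM in SCZ+c-MSST and 3280 to 3830 CPM in SCZ. Septal and medial forebrain markers summed to 42.6 to 58.4 CPM in SCZ+c-MSST and 46.8 to 113 CPM in SCZ. Endothelial markers summed to 175 to 228 CPM in SCZ+c-MSST and 221 to 244 CPM in SCZ, and neuronal markers to 7930 to 8400 CPM in SCZ+c-MSST and 7010 to 8160 CPM in SCZ. Other genes with transcripts of at most 1500 bases were also lower more often, with 1167 of 3006 positive and a median of -0.05. The part of these in the members' levels was not tested.

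**Figure D5:**
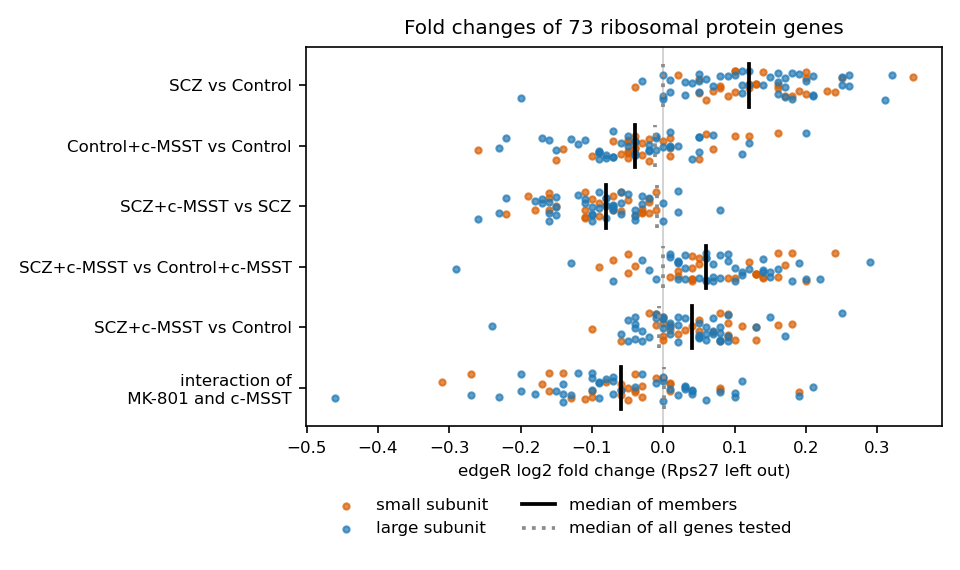
edgeR log2 fold changes (x axis) of 73 members, Rps27 left out, in 6 contrasts (y axis), with 1 point per gene coloured by subunit, the members' median as a black bar and the median of all genes as a dotted grey bar. The members' medians run from 0.12 for SCZ vs Control to -0.08 for SCZ+c-MSST vs SCZ.

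With the intervention in both groups, SCZ+c-MSST against Control+c-MSST had a median change of 0.06, with 62 of 74 positive against 49.9% of all genes. EdgeR and DESeq2 called 0 members, while over all genes edgeR called 0% and DESeq2 called 80 genes. The FPKM values gave 29 of 74 positive and a median of -0.03. The median of all genes was then -0.056 with 1 added before the log and -0.086 with 0.1 added. With the replicate number as a block, 40 of 74 were positive and the median was 0.01. The sign of the members' median therefore depended on the unit and the model, while on FPKM that median still lay above the median of all genes. On the counts, 14 members were higher and 0 lower at an unadjusted p under 0.05, against 5.46% of all genes higher and 5.51% lower. On TMM-scaled values, 4 members lay above Control+c-MSST without overlap and 0 below, against 2.3% and 2.36% of all genes, and in unscaled CPM 3 lay above, against 2.61%. That count of 14 fell to 6 without SCZ+c-MSST replicate 3 or Control+c-MSST replicate 6, and to 7 without SCZ+c-MSST replicate 4 or Control+c-MSST replicate 4 or 7. It was 22 without SCZ+c-MSST replicate 5 and 23 without Control+c-MSST replicate 2. Rps12 had 120, 122, 123 and 107 CPM in SCZ+c-MSST and 108, 105, 94.1, 88.6 and 99.4 CPM in Control+c-MSST. The groups met at 1 library each, and the change was 0.24 (SE 0.06, edgeR adjusted p = 0.271). Rps10 changed by 0.17 (SE 0.05, adjusted p = 0.303). Striatal markers summed to 666 to 1490 CPM in SCZ+c-MSST and 143 to 953 CPM in Control+c-MSST, and oligodendrocyte markers to 2560 to 3380 CPM in SCZ+c-MSST and 890 to 2800 CPM in Control+c-MSST. Red blood cell markers summed to 189 to 1300 CPM in SCZ+c-MSST and 126 to 216 CPM in Control+c-MSST, with Hba-a1 at 0 in some libraries. Every marker of these lists had a positive change, as did 5 of 5 astrocyte, 4 of 6 neuronal, 4 of 5 microglial, 3 of 5 endothelial, 4 of 5 choroid plexus and 3 of 4 septal and medial forebrain markers. Their part was not tested.

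SCZ+c-MSST against Control, a contrast of both treatments together with neither, had a median change of 0.04, 48 of 74 positive against 48% of all genes, and 0 called, as were 0% of all genes. At an unadjusted p under 0.05, 4 were higher and 0 lower, against 4.37% and 5.71% of all genes, which is near the background for higher members, and 9 were higher without Control replicate 5. On TMM-scaled values 0 members lay above and 0 below without overlap, against 0.78% and 0.877% of all genes. Rps2, at the mRNA entry of the small subunit, had 161, 141, 145 and 136 CPM in SCZ+c-MSST, against a lowest of 122, a median of 137 and a highest of 142 CPM in Control, with overlapping groups (change 0.13, SE 0.04, edgeR adjusted p = 0.388). Of the markers, 6 of 6 striatal, 5 of 5 red blood cell, 5 of 6 neuronal, 4 of 5 microglial and 4 of 5 endothelial had a positive change. So did 1 of 4 septal and medial forebrain, 0 of 6 oligodendrocyte, 0 of 5 astrocyte and 0 of 5 choroid plexus markers. Their part in the members' levels was not tested. The interaction, which is the c-MSST difference under MK-801 less the one under saline, had a median of -0.06 with 26 of 74 positive, against 50.3% of all genes, and 0 called, as were 0% of all genes. At an unadjusted p under 0.05, 2 members were higher and 2 lower, against 3.9% and 3.39% of all genes. The lower count was 6 without Control replicate 4 and 5 without Control replicate 5, and both counts were 0 without SCZ replicate 3 or Control+c-MSST replicate 6. Leaving out other libraries gave 0 to 3 members in either direction. Its smallest adjusted p was 0.651, for Rpl36a (0.21, SE 0.09), so no member's response to c-MSST was shown to differ between the treatments. These 6 contrasts share libraries, so their values are given side by side and not as independent results.

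Other parts of the translation machinery, were taken from lists chosen with earlier results of these data known, and their values in SCZ against Control were as follows. Of 9 ribosomal proteins whose symbols fall outside the pattern, 8 had a positive change (median 0.13) and 0 were called. Rpsa, the laminin receptor homologue of the small subunit, averaged 336 ± 24.0 CPM in SCZ and 303 ± 20.5 CPM in Control (change 0.13, edgeR adjusted p = 0.349). Of 78 mitochondrial ribosomal protein genes, 58 were positive (median 0.06), and of 38 translation factors, 24 (median 0.02). Eef1a1, which brings tRNA to the ribosome, averaged 1600 ± 79.5 CPM in SCZ and 1470 ± 133 CPM in Control (change 0.10, adjusted p = 0.396), while its neuronal paralogue Eef1a2 had a change of -0.08 (adjusted p = 0.460). Of 50 ribosome biogenesis genes, 25 were positive (median 0.00), with nucleolin (Ncl) at -0.01. Of 18 genes of mTOR signalling, 3 were positive (median -0.06), with Mtor at -0.01. Of 10 tested p53 genes, 3 were positive (median -0.06). None was called in SCZ against Control. In SCZ+c-MSST against SCZ, 0 of 9 other ribosomal proteins, 16 of 78 mitochondrial ones, 10 of 38 translation factors, 12 of 50 biogenesis genes and 14 of 18 mTOR genes were positive, and 0 were called. Across all contrasts, 1 gene of these lists was called: Zmat3, a p53 target, in Control+c-MSST (212 ± 11.4 CPM, n = 5) against Control (183 ± 10.6 CPM, n = 6), with a change of 0.24 (edgeR adjusted p = 0.0439). No gene was called in that contrast with the replicate number as a block, with only the groups compared or without Control+c-MSST replicate 6, so this call was lost in each.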

How the data were processed

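Per the labels' protocols, RNA from the left prelimbic cortex was made into stranded total RNA libraries, and the series' design text puts tissue collection on the third day after surgery. The authors deposited estimated counts per gene, whole numbers as found, and FPKM values, scaled by the authors to length and depth. The submitters' processing notes name build mm10, StringTie 1.3.5, Picard 2.18.29, STAR 2.7.7a and fastp 0.19.5. The annotation and the use of strand in counting are not given in the sources used here. Libraries were put in groups by their titles.

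Counts were tested with edgeR 4.0.16 (R 4.3.3) after filterByExpr, which kept 16417 genes, with TMM and 1 robust quasi-likelihood model over the 4 groups and 19 libraries. P values were adjusted over all genes by Benjamini and Hochberg, with a threshold of 0.05. All 74 members were tested. CPM is count over the column sum, times 1000000, and log2 CPM used a prior count of 2. The steps were run on simulated counts, drawn independently for each gene and with changes larger than the members' medians. That run therefore does not measure power for small shifts shared by many genes. The members and lists were chosen with earlier results of these data known. Named members were a fixed set by role, the 3 with the smallest p in each contrast, the 3 highest and lowest by mean FPKM, and those least correlated with the rest. Rpl15 and Rps10 windows and the non-overlapping members were chosen after their values were seen. Of the members and list genes the rule names, 2 are not reported here. Alternatives were DESeq2 1.42.0 and its size factors, upper-quartile scaling, limma 3.58.1 (voom, and log2 FPKM with 2 pseudocounts, 1 and 0.1), other filters, a replicate block, fits of the groups compared alone, and leaving out each library.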

Additional observations from a re-analysis of the deposited data

Results flagged for a closer look

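Within each group, a library was marked where its gap to the nearest other library exceeded Dixon's critical share of the group's range. Of 132 groups checked over 33 quantities, 5 were marked, and chance marks about 1 in 20. Rps27 had 0.134 CPM in Control+c-MSST replicate 4, against 37.1 to 46.9 CPM in the other Control+c-MSST libraries. Rps6 had 140 CPM in SCZ+c-MSST replicate 4, against 128 to 129 CPM in the others of that group. Rps2 had 158 CPM in SCZ replicate 5, against 147 to 148 CPM in the other SCZ libraries. Rpl19 had 208 CPM in Control replicate 1, against 177 to 188 CPM in the other Control libraries. Rpl34 had 4.21 CPM in SCZ+c-MSST replicate 3, against 5.54 to 5.76 CPM in the others of that group. The part of technical variation in these values was not tested.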

How the results depend on the processing

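Under most alternatives the members' medians moved by less than 0.0763, the within-group SD of the members' mean log2 CPM. That limit exceeds every main median except those of SCZ vs Control and SCZ+c-MSST vs SCZ, so it cannot show that the others were kept. With the replicate block, medians were -0.01 in Control+c-MSST vs Control, 0.01 in SCZ+c-MSST vs Control+c-MSST and 0.01 in SCZ+c-MSST vs Control. With log2 FPKM, at pseudocounts 1 and 0.1, the median moved to 0.04 and 0.04 in Control+c-MSST vs Control, -0.03 and -0.03 in SCZ+c-MSST vs Control+c-MSST, and -0.18 and -0.19 in the interaction. The medians of all genes were then 0.037 and 0.064, -0.056 and -0.086, and -0.083 and -0.125, in the same order. The cause was not tested. Members called rose to 2 in SCZ vs Control (Rpl13, Rps28) with DESeq2, among 242 genes called in all. They rose to 3 in Control+c-MSST vs Control (Rps24, Rpl36a, Rpl21), among 571 genes called in all. Leaving out each library gave 0 to 1 members called in SCZ vs Control and 0 in the other contrasts. The 1 was Rpl13 without Control replicate 4 (edgeR adjusted p = 0.0486), among 94 genes called in all. Medians then ran from 0.10 to 0.15 in SCZ vs Control, -0.08 to -0.01 in Control+c-MSST vs Control, -0.10 to -0.06 in SCZ+c-MSST vs SCZ, 0.04 to 0.10 in SCZ+c-MSST vs Control+c-MSST, -0.01 to 0.07 in SCZ+c-MSST vs Control and -0.09 to -0.02 in the interaction, and the mean share from 0.697% to 0.706%.

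For 46 pairs of a named gene and a contrast, the alternatives gave 1377 values, of which 24 changed sign. Summing Rps27 with Rps27rt gave 0.34 in SCZ vs Control. The other reversals were of genes near 0 in SCZ vs Control. Rps24 and Rpl19 became 0.00 and 0.01 with FPKM at both pseudocounts. Rpl36a became -0.02 with the replicate block. Rpl21 became -0.00 with DESeq2 size factors, the DESeq2 test or only the groups compared, and -0.01 with the replicate block. Leaving out each library gave ranges that crossed 0: -0.06 to 0.01 for Rps24, -0.05 to 0.01 for Rpl19, -0.01 to 0.05 for Rpl36a, -0.01 to 0.01 for Rpl21, -0.02 to 0.05 for Rpl29 and -0.03 to 0.09 for Rps27l.

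Among all genes, DESeq2 called 242 in SCZ vs Control and 571 in Control+c-MSST vs Control, where edgeR called 0 and 54; without 1 library, edgeR called 0 to 94 and 0 to 314. Between groups, 19 pairs of libraries with the same replicate number had a median correlation of -0.01 (-0.24 to 0.25). The 115 pairs with different numbers had a median of -0.00 (-0.24 to 0.32). So few pairs cannot exclude that libraries of 1 number share a batch. With the replicate block, 0 members were called, and members lower at an unadjusted p under 0.05 in SCZ+c-MSST vs SCZ numbered 14 in place of 5 (22 with only the groups compared, 19 with voom), and those higher in SCZ+c-MSST vs Control+c-MSST 2 in place of 14. In the interaction it gave 8 lower in place of 2. The share of all genes at that unadjusted p under these settings is not given here, so these counts have no background. In SCZ+c-MSST vs SCZ, all genes called at an adjusted p under 0.05 were 31 with only the groups compared and 43 with voom. They were 0 in the main fit and with the block.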
